A study of Mus musculus with 4 samples.

Results

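The Myc network and ribosome biogenesis genes described here are 37 genes, picked by symbol from a fixed list. They comprise 8 genes of the Myc network, 27 genes of the nucleolus and of RNA polymerase I, the Myc target Odc1 and the ribosomal RNA precursor Rn45s. All 37 were found among the 25170 gene symbols of the deposited tables. All 37 reached 1 in some library, as did 13142 genes in all. The rule goes by symbols and uses no measured value, but the members were chosen with earlier results of these data known.

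RNA was sequenced from mouse embryonic stem cells in 4 libraries, 1 for each group. WT is the E14 line with a wild-type genotype, and SO is the wild-type genotype under a treatment that the labels give only as SO. The series text speaks of an inhibitor, without dose or duration. Ldha_KO and Ldhb_KO are knockouts of the genes for the A and B subunits of lactate dehydrogenase, which interconverts pyruvate and lactate. The labels give the same culture for all groups, on gelatin in medium with serum and LIF. Nothing in the labels says whether each knockout is 1 clone.

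Myc and its relative Mycn are transcription factors that pair with Max and bind the E-box sequence CACGTG. The Mxd proteins, Mnt and Mga also pair with Max and oppose Myc at the same sites. Ribosome production is the classic output of Myc: RNA polymerase I copies the ribosomal DNA in the nucleolus, small nucleolar RNPs (snoRNPs, RNA guides with their proteins) modify the precursor RNA, and assembly factors build the small and large subunits around it. In embryonic stem cells Myc and Mycn support growth and self-renewal.

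Values are FPKM, that is, fragments counted on a gene corrected for its length and for the depth of the library, and are called levels. A difference is that of log2(FPKM + 1) between 2 libraries, and a gene was called higher or lower where it reached 1, which is 2-fold. Such a difference understates the change of genes at low levels. Each group has 1 library, which allows neither an error nor a test, so every difference compares libraries and not conditions. All comparisons with WT share the 1 WT library, and a value particular to that library would enter each of them. In bulk RNA, fewer cells that express a gene and less RNA per cell cannot be told apart.

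The deposited values summed to between 471595 (SO) and 526316 (WT). The depth in reads is unknown, but the steps between low values put the depths at 0.995 to 1.05 times that of WT. The ratio of the worth of 1 read to that in WT was taken over low genes near the most common ratio. These numbered 352 in SO, 353 in Ldha_KO and 338 in Ldhb_KO. The ratio had a span of 0.0169% in SO, 0.614% in Ldha_KO and 0.459% in Ldhb_KO. Against SO, the spans of Ldha_KO and Ldhb_KO were 0.677% and 0.476%, and between the knockouts the span was 0.225%. Among such genes, the knockouts thus differed from WT and SO in how this worth varied, and less from each other. The part of that in the results was not tested. The labels name no batch. Ldha was at 154 in Ldha_KO and at 1711 or more elsewhere, and Ldhb at 5.74 in Ldhb_KO and at 76.5 or more elsewhere, as labelled. The 10 pluripotent stem cell markers summed to 6079 (Ldha_KO) to 6966 (WT), with none at 0. In Ldha_KO, where Mycn was low, 6 of the 10 lay below WT and 4 above. Utf1 was at 51.8%, Sox2 at 55.1%, Tdgf1 at 67.2% and Pou5f1 at 73.1% of WT, while Klf4 was at 156% and Nanog at 118%. Tdgf1 in Ldha_KO was at 47.8% of Ldhb_KO, where it was at 140% of WT. The part of these markers in the results was not tested. Fibroblast markers summed to 41.4 to 51.8, mostly from Thy1, and Dcn, Lum and Fap were at 0 in all 4 libraries. Of the 3 fibroblast markers kept, Thy1 lay below WT in SO, Ldha_KO and Ldhb_KO, and Pdgfrb and Col1a1 lay above. Pdgfrb, at 0.949 in WT, was at 353%, 295% and 383% of WT in that order, and was called higher in SO and Ldhb_KO. Col1a1 was at 140%, 116% and 156%. The part of the fibroblast markers in the results was not tested.

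Promoter sequences from RefSeq (GRCm38.p6, 250 bases before to 50 after the gene start) were searched for the Myc-Max site CACGTG, which reads the same on both strands. The build of the deposited tables is mm9, so these coordinates serve only to locate the sequences. An entry was found for 30 members and none for Myc, Fbl, Rrp12, Rrs1, Bop1, Npm1 and Rn45s. The promoters below belong to the 4 members with the site that differed most from WT, and to Mycn. Capitals mark the site.
Mxd4: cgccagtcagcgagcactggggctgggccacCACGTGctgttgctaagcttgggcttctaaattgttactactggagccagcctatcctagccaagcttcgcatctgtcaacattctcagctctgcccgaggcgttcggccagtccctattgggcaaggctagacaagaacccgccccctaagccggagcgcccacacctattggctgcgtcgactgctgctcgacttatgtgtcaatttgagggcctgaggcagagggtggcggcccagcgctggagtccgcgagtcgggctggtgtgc
Wdr43: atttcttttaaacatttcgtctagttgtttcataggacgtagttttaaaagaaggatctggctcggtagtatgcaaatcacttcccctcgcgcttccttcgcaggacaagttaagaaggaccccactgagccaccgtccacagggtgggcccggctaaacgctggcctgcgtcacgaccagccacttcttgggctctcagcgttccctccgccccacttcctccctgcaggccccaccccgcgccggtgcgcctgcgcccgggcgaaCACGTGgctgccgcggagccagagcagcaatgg
Utp20: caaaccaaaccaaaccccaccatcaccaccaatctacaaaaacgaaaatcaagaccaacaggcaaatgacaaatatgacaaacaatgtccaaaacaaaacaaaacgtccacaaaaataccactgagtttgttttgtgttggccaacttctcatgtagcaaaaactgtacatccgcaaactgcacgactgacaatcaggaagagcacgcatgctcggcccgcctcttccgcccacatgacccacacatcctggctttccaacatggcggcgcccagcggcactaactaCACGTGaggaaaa
Rrn3: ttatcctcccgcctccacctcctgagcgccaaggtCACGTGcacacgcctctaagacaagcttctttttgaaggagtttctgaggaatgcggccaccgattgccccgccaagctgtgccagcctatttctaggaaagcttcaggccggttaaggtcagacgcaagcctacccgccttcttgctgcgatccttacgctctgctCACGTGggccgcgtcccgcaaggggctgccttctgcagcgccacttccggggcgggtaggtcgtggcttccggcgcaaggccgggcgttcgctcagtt
Mycn: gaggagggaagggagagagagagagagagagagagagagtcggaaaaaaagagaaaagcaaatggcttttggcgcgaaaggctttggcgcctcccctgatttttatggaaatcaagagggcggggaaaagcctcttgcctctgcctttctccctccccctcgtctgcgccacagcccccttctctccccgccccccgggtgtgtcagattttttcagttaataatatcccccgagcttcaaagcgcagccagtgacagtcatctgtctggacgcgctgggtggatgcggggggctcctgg
Mxd4 lies at chr5:34187661-34187960 on the minus strand and Wdr43 at chr17:71615965-71616264 on the plus strand. Utp20 lies at chr10:88826765-88827064 on the minus strand, Rrn3 at chr16:13780449-13780748 on the plus strand and Mycn at chr12:12941787-12942086 on the minus strand. Rrn3 holds the site in 2 places of its window, the other 3 hold it in 1 place, and these letters are not in the Mycn window.

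In all, 8 of 30 members with an entry (26.7%) held CACGTG: Max, Mxd4, Mnt, Rrn3, Utp20, Wdr43, Nop2 and Pes1. The site was in 2187 of 27025 promoters of the same length in the whole table (8.09%), and in 12.2% of the 10461 promoters of genes kept here. A match is a description of the letters and not evidence of binding. The median differences from WT of the 8 members with the site were -0.24 in SO, -0.26 in Ldha_KO and -0.41 in Ldhb_KO. Those of the 22 members with an entry and without the site were -0.37, -0.28 and -0.44. In each comparison with WT, both sets thus had a median below 0.

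Myc was the member with the largest difference from WT in both knockouts. Its level was 66.5 in WT, 40.5 in SO, and 12.7 and 14.8 in Ldha_KO and Ldhb_KO. The knockout libraries lay far below WT, at 19.1% and 22.2% of its level, and SO lay between, at 60.9%. The differences from WT were -0.70 for SO, -2.30 for Ldha_KO and -2.10 for Ldhb_KO. The knockouts differed from each other by only -0.20 (Ldha_KO less Ldhb_KO).

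Mycn, the paralogue that embryonic stem cells express beside Myc, was at 64.5 in WT, and 43.8 (SO), 29.8 (Ldha_KO) and 67.0 (Ldhb_KO) in the others. It was low in Ldha_KO, intermediate in SO, and close to WT in Ldhb_KO. The difference of Ldha_KO from WT was -1.09, that of SO -0.55 and that of Ldhb_KO 0.06. Ldha_KO lay 1.14 below Ldhb_KO on the log2 scale, the only member called between the knockouts. The call of Mycn in Ldha_KO rests on the scale of the deposited values: with every library brought to the WT sum the difference was -0.95, and by the median ratio to WT -0.99.

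Added together, Myc and Mycn reached 131 in WT and 84.3 in SO, with 42.5 in Ldha_KO and 81.8 in Ldhb_KO. The sum in Ldha_KO was thus 32.5% of WT, while SO (64.4%) and Ldhb_KO (62.5%) came out close to each other from different makeups. Myc made up 50.8% of the sum in WT and 48.1% in SO. Its share was 29.9% in Ldha_KO and 18.1% in Ldhb_KO.

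**Figure D1:**
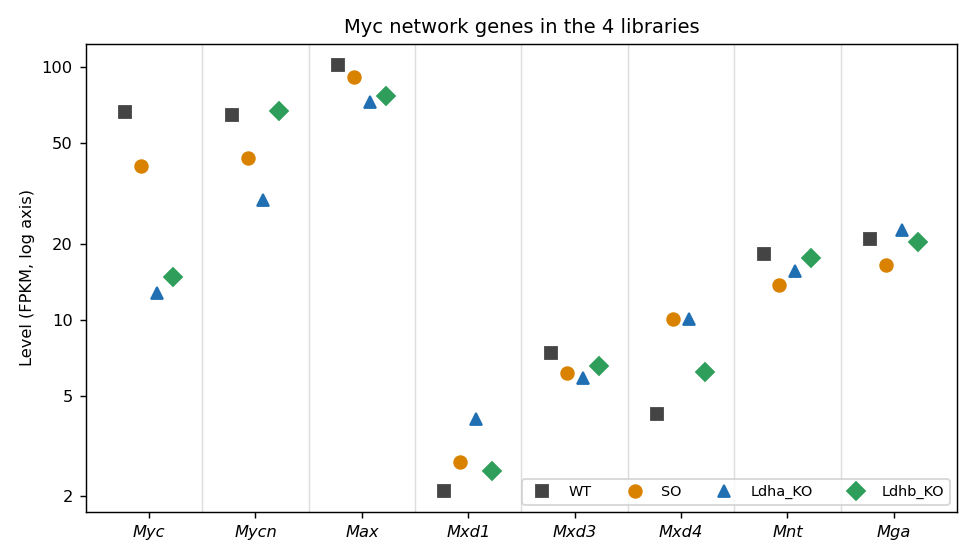
Level (FPKM, log axis) of the 8 Myc network genes in the 4 libraries, 1 point per library, with no error because each group has 1 library. Myc lies at 12.7 and 14.8 in the knockouts against 66.5 in WT, Mycn is low in Ldha_KO alone among the knockouts, and Mxd4 is lowest in WT.

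Max, the shared partner of the network, was at 102 in WT, 91.1 in SO, and 72.8 and 77.0 in Ldha_KO and Ldhb_KO. WT was highest, and the differences of -0.15, -0.47 and -0.40 all stayed within 2-fold. The difference in SO was 0.00 once libraries were brought to the WT sum.

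Mxd4, a Max partner linked to differentiation, was the member with the largest positive difference. It was at 4.22 in WT, and 10.1 (SO), 10.1 (Ldha_KO) and 6.18 (Ldhb_KO) in the others. SO and Ldha_KO matched at 239% of WT, with differences of 1.09 and 1.08, and Ldhb_KO lay between at 0.46. Mxd4 shares exon sequence with the antisense gene Gm42846, and reads of the pair cannot be told apart if strand was not used in counting. Mxd1, another repressive partner, was at 2.10 in WT and 2.72 in SO, with 4.04 in Ldha_KO and 2.51 in Ldhb_KO. Ldha_KO was highest, with a difference of 0.70, which did not reach 2-fold at this low level.

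The remaining partners differed from WT by less than 1.5-fold. Mxd3, expressed in cycling cells, was at 7.39, 6.17, 5.86 and 6.56 in WT, SO, Ldha_KO and Ldhb_KO. Mnt, a broadly expressed antagonist, was at 18.2, 13.8, 15.6 and 17.5 in the same order. Mga, which also forms a repressive Polycomb-type complex, was at 20.8, 16.5, 22.5 and 20.3. SO was the lowest library for Mnt and Mga, at 75.5% and 79.6% of WT. The largest difference from WT of these genes was that of Mnt in SO, -0.38. The differences of Mnt and Mga in Ldhb_KO, -0.06 and -0.03, turned positive under either rescaling.

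The summed level of the 5 antagonists Mxd1, Mxd3, Mxd4, Mnt and Mga was 52.7 in WT, 49.2 in SO, and 58.1 and 53.03 in Ldha_KO and Ldhb_KO. The ratio of Myc plus Mycn to this sum was 2.49 in WT, and 1.71 (SO), 0.731 (Ldha_KO) and 1.54 (Ldhb_KO) in the others. Being taken within a library, it does not depend on how libraries are scaled. Ldha_KO was the only library in which the transcripts of the antagonists exceeded those of Myc and Mycn. Relative to Max, Myc plus Mycn stood at 1.29, 0.925, 0.584 and 1.06 in the order WT, SO, Ldha_KO and Ldhb_KO.

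Over all 37 members, few passed 2-fold and most lay below WT. In SO 1 member was higher, Mxd4, against 2.69% of all genes kept, and 0 were lower, against 0.472%. In Ldha_KO 1 was higher, again Mxd4 (all genes 2.65%), and 2 were lower, Myc and Mycn (1.06%). In Ldhb_KO 0 were higher (3.36%) and 1 was lower, Myc (1.09%). Every member called against WT thus belonged to the Myc network. Between the knockouts 0 members were higher in Ldha_KO (1.67%) and 1 was lower, Mycn (1.54%).

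The scale of the libraries bears on these backgrounds. Of all genes called, 85.1% were higher in SO, 71.5% in Ldha_KO and 75.5% in Ldhb_KO. With libraries brought to the WT sum, the shares were 91.9%, 83.3% and 86.4%, and the median of all genes moved from -0.04 to 0.10, from -0.03 to 0.09 and from -0.02 to 0.08.

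At 1.5-fold more members passed, mostly downwards. In SO 1 was higher (Mxd4, all genes 8.28%) and 3 were lower: Myc, Nop58 and Ncl (all genes 4.29%). In Ldha_KO 3 were higher, Mxd1, Mxd4 and Rn45s (8.94%), and 4 were lower, Myc, Mycn, Rrp9 and Rrp1b (6.31%). In Ldhb_KO 0 were higher (12.6%) and 7 were lower: Myc, Polr1a, Polr1b, Nop56, Nop58, Nop16 and Rrp1b (7.2%). Myc and Rrp1b were lower in both knockouts. Between the knockouts, Mxd4 and Rn45s were higher in Ldha_KO (2 members, 6.51%) and Mycn was lower (1 member, 8.09%).

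Most members lay below WT, whatever the size of the difference. They numbered 34 of 37 in SO, against 54.3% of all genes kept. The counts were 30 in Ldha_KO (53.2%), 34 in Ldhb_KO (52.3%) and 13 between the knockouts (52.1%). The median member difference was -0.37 in SO, -0.29 in Ldha_KO and -0.42 in Ldhb_KO. WT stood above each of the other 3 libraries for 29 of 37 members, against 31.2% of all genes.

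Level has to be read beside these counts, since members are abundant and abundant genes of any kind tended to lie below WT. Among the 4516 genes with a mean level of at least 20, the medians were -0.17, -0.14 and -0.18 in SO, Ldha_KO and Ldhb_KO, and 73.8%, 70.2% and 70.9% lay below 0. Among the 876 genes with a mean of at least 100 the medians were -0.23, -0.20 and -0.20. WT was above each other library for 50.7% and 65.3% of these genes. The part of level in the members' differences was not tested.

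**Figure D2:**
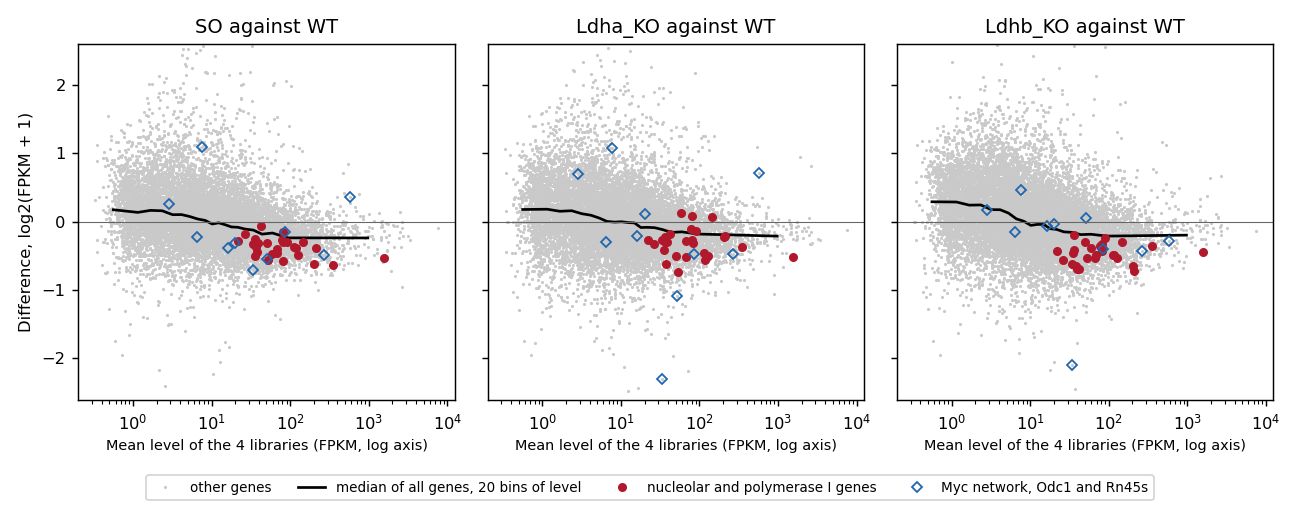
Difference from WT on the log2(FPKM + 1) scale against the mean level of the 4 libraries (FPKM, log axis), 1 panel per comparison, with 9, 11 and 4 genes beyond the vertical range of 2.6. The black line is the median of all genes in 20 bins of level and lies below 0 at high levels, and 25, 22 and 27 of the 27 nucleolar and RNA polymerase I genes (red) lie below the median of their bin.

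The 27 nucleolar and RNA polymerase I members were lower than WT with few exceptions and by small amounts. Those below 0 numbered 27 (SO), 24 (Ldha_KO) and 27 (Ldhb_KO), with medians of -0.38, -0.29 and -0.45. None was called at 2-fold in any comparison. Their summed level was 3466 in SO, 3695 in Ldha_KO and 3492 in Ldhb_KO, against 4810 in WT, which is 72.1%, 76.8% and 72.6%. With libraries brought to the WT sum, 25, 22 and 27 still lay below 0, with medians of -0.22, -0.15 and -0.34. Between the knockouts, 20 of 27 were higher in Ldha_KO, with a median of 0.12.

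**Figure D3:**
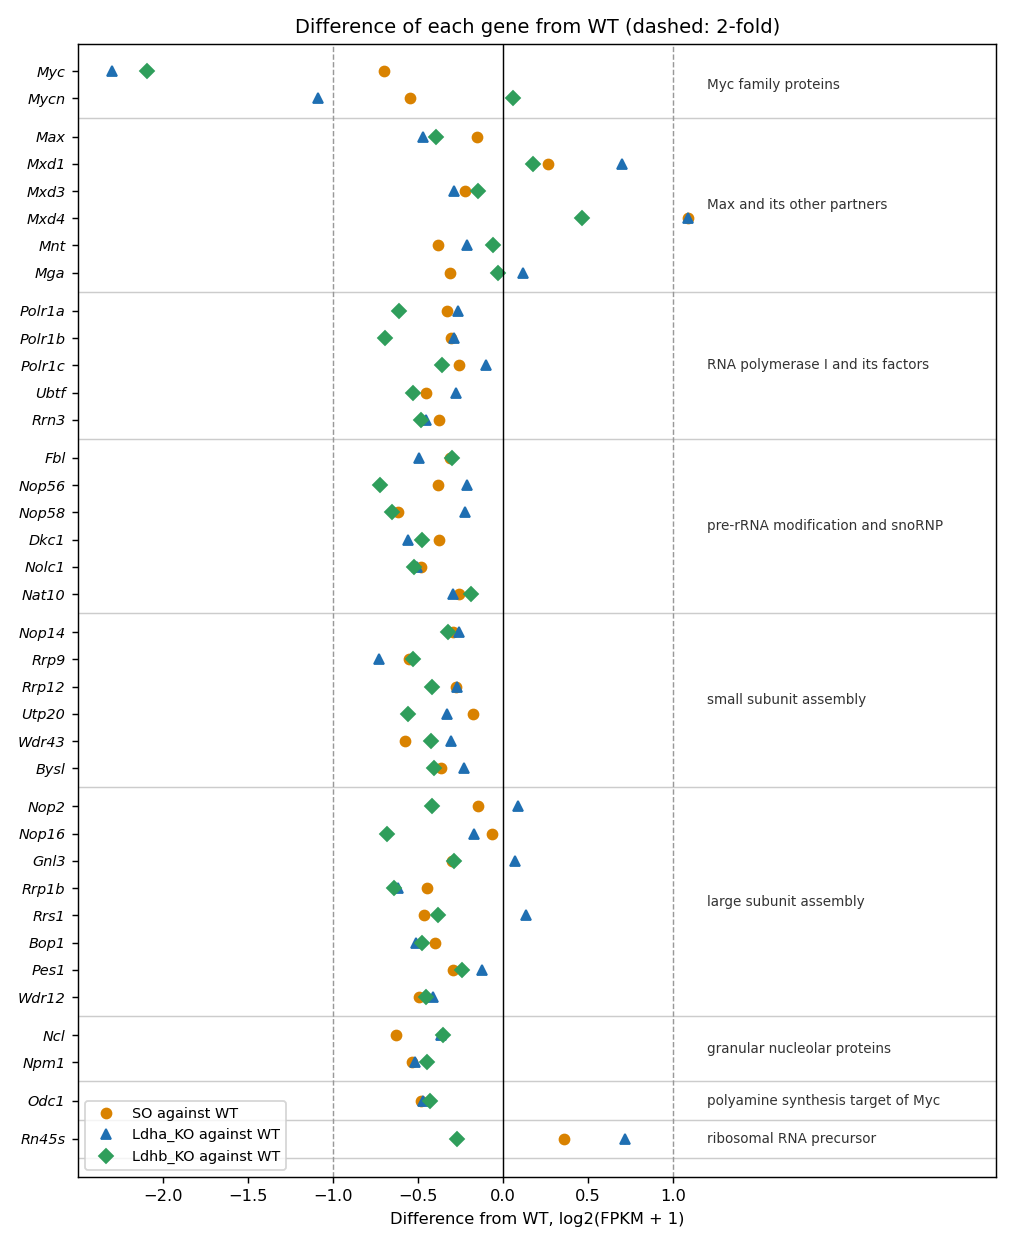
Difference of each of the 37 members from WT on the log2(FPKM + 1) scale, grouped by role, for SO, Ldha_KO and Ldhb_KO. Dashed lines mark 2-fold. Myc lies past the lower line in Ldha_KO and Ldhb_KO, and Mycn in Ldha_KO. Mxd4 lies past the upper line in SO and Ldha_KO, while the nucleolar genes lie between -0.73 and 0.13.

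The 5 members of the RNA polymerase I machinery were lower than WT in all 3 libraries and lowest in Ldhb_KO. Polr1a, the largest subunit of the enzyme, was at 41.2 in WT and 32.6 in SO, with 34.1 in Ldha_KO and 26.6 in Ldhb_KO. Polr1b, the second largest subunit, was at 48.5, 39.0, 39.4 and 29.5 in the same order. For both, Ldhb_KO was the low library (differences of -0.61 and -0.70), and SO and Ldha_KO lay close together near -0.3.

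Polr1c, a subunit shared with RNA polymerase III, was at 88.7 in WT, 73.9 in SO, and 82.6 and 68.8 in Ldha_KO and Ldhb_KO. Ubtf, which opens ribosomal DNA for the polymerase, was at 82.9, 60.2, 68.2 and 57.2. Rrn3, the initiation factor whose promoter is shown above, was at 141, 109, 103 and 101. Ldhb_KO was again lowest for all of them, though for Rrn3 it nearly matched Ldha_KO. With libraries brought to the WT sum, the difference of Polr1c in Ldha_KO turned from -0.10 to 0.04.

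The 6 genes of precursor RNA modification were all below WT but did not share an order of libraries. Nop56 and Nop58, core proteins of the box C/D snoRNPs, were at 263 and 260.4 in WT and at 159 and 165 in Ldhb_KO. In SO they were at 201 and 169, and in Ldha_KO, the library nearest to WT, at 226 and 222. Their differences in Ldhb_KO were -0.72 and -0.65, against -0.21 and -0.23 in Ldha_KO.

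Fbl, the methyltransferase of the same particles, was at 60.8 in WT, and 48.8 (SO), 42.8 (Ldha_KO) and 49.1 (Ldhb_KO) in the others. Here Ldha_KO was lowest, the reverse of Nop56 and Nop58. Dkc1, the pseudouridine synthase of box H/ACA snoRNPs, was at 149, 114, 101 and 106, with Ldha_KO also lowest. Nolc1, a chaperone of snoRNPs, was at 164 in WT and within 113 to 117 in the other libraries. Nat10, an RNA acetyltransferase, was at 40.9 in WT and at 34.1, 33.2 and 35.8 in SO, Ldha_KO and Ldhb_KO. The differences of Nolc1 were near -0.5 in each library and those of Nat10 between -0.29 and -0.19.

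All 6 small subunit assembly members lay below WT in every library. Rrp9, a protein of the U3 snoRNP, had the largest difference, at 71.7 in WT and 48.4 in SO, with 42.9 in Ldha_KO and 49.3 in Ldhb_KO. Ldha_KO was lowest (-0.73). Wdr43, of the processome that first forms on the precursor, was at 102, 68.0, 82.1 and 75.7, with SO lowest (-0.58). Utp20, of the same complex, was at 31.6, 27.8, 24.9 and 21.1, with Ldhb_KO lowest (-0.56).

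Nop14, which binds the precursor of the small subunit, was at 94.5 in WT, 76.6 in SO, and 78.6 and 75.1 in Ldha_KO and Ldhb_KO. Rrp12, an export and processing factor, was at 26.1, 21.3, 21.4 and 19.2. Bysl, a late assembly factor, was at 43.4, 33.4, 36.9 and 32.5. All had Ldhb_KO as the lowest library by a small margin over the next. Which library was lowest thus varied from gene to gene within this group, while WT was highest for all of its 6 genes.

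The 8 large subunit assembly members held the only nucleolar genes above WT. Their median difference in Ldha_KO, -0.15, was -0.01 with libraries brought to the WT sum. Nop2, a methyltransferase of the large subunit RNA, was at 87.9 in WT, and 79.2 (SO), 93.4 (Ldha_KO) and 65.6 (Ldhb_KO) in the others. Gnl3 (nucleostemin), a GTPase abundant in stem cells, was at 158, 128, 166 and 129. Rrs1, which helps to bring the 5S particle into the subunit, was at 65.9, 47.4, 72.3 and 50.3. For all 3 Ldha_KO was highest, with small differences from WT of 0.09, 0.07 and 0.13, and Ldhb_KO was below WT. SO was low for Gnl3 and Rrs1, while for Nop2 it stayed near WT (-0.15, and 0.01 with libraries brought to the WT sum).

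Nop16, a large subunit assembly factor, was at 49.1 in WT and 46.9 in SO, with 43.4 in Ldha_KO and 30.2 in Ldhb_KO. Ldhb_KO was low at -0.68, and SO was close to WT (-0.07, and 0.09 after bringing libraries to the WT sum). Rrp1b, a nucleolar protein of ribosome biogenesis, was at 50.4, 36.7, 32.6 and 32.0. Both knockouts were low, at -0.62 and -0.64.

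Pes1, Bop1 and Wdr12 form the PeBoW complex needed for large subunit maturation. Pes1 was at 101 in WT, 82.3 in SO, and 92.7 and 85.5 in Ldha_KO and Ldhb_KO. Bop1 was at 86.4, 65.1, 60.2 and 61.7. Wdr12 was at 44.4, 31.2, 33.2 and 32.2. WT was highest for each, but the partners were not lowered in 1 proportion: Ldha_KO held 91.4% of WT for Pes1, 69.7% for Bop1 and 74.6% for Wdr12. The difference of Pes1 in Ldha_KO was 0.01 once libraries were brought to the WT sum.

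Summed by role, SO and Ldhb_KO held 80.3% and 75.6% of the WT level of large subunit genes, and Ldha_KO held 92.2%. For RNA polymerase I genes the values were 78.1% in SO, 81.3% in Ldha_KO and 70.3% in Ldhb_KO. For modification genes they were 72.9%, 79.0% and 67.1%, and for small subunit genes 74.7%, 77.7% and 74.0%. By these sums Ldha_KO was the library nearest to WT in each of the 4 roles. For the modification genes that sum is carried by Nop56 and Nop58: the other 4 genes were lower in Ldha_KO than in SO, and the median was -0.40 in Ldha_KO against -0.38 in SO. The small subunit sum, 287 in Ldha_KO against 276 in SO, rests mostly on Wdr43, at 82.1 against 68.0. Nop14, Rrp12 and Bysl were slightly higher in Ldha_KO than in SO. Rrp9 (42.9 against 48.4) and Utp20 (24.9 against 27.8) were lower.

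Ncl and Npm1, the abundant nucleolar proteins nucleolin and nucleophosmin, behaved otherwise. Ncl was at 439 in WT, and 283 (SO), 340.3 (Ldha_KO) and 343 (Ldhb_KO) in the others. Npm1 was at 2018, 1392, 1407 and 1477. SO was lowest for both, with differences of -0.63 and -0.54, and the knockouts differed from each other by 0.07 or less. Npm1 has near-identical copies in the genome, so its value is uncertain.

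Odc1, the rate-limiting enzyme of polyamine synthesis and a textbook Myc target, was at 336 in WT and 239.9 in SO, with 242 in Ldha_KO and 249 in Ldhb_KO. It lay at 71.4%, 72.0% and 74.1% of WT, nearly the same in the 3 libraries. Over the same libraries Myc lay at 60.9%, 19.1% and 22.2%.

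Rn45s, the precursor from which the RNAs of both subunits are cut, was at 489 in WT, 627 in SO, and 804 and 405 in Ldha_KO and Ldhb_KO. Ldha_KO was highest and Ldhb_KO lowest, at 164% and 82.7% of WT. Its order thus differed from that of the polymerase I genes, which were below WT in SO and Ldha_KO too. Between the knockouts the difference was 0.99, just under 2-fold, and 1.01 with both brought to the WT sum. Rn45s is a repeated gene whose RNA carries no poly(A) tail, while the labels give polyadenylated RNA, so its value is uncertain.

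For 11 members the GENCODE annotation of GRCm38 gives an exon overlap on the opposite strand, as for Nop56 with Idh3b, Gnl3 with Pbrm1 and Bysl with Ccnd3. Neither the labels nor the tables say whether the counting used strand, so the values of these members are uncertain.

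Other genes of the pathway were taken from 10 lists of 301 entries, of which 297 were found. The 44 other small subunit assembly genes had medians of -0.33 in SO, -0.26 in Ldha_KO and -0.40 in Ldhb_KO, with 44, 36 and 43 below 0. The 45 other large subunit genes had -0.33, -0.25 and -0.41, with 43, 42 and 43 below 0. Neither list held a gene called at 2-fold. At 1.5-fold, 7 and 10 genes of these lists were lower in Ldhb_KO, against 1 and 1 in SO and 1 and 1 in Ldha_KO. Of all genes kept, 7.2% were lower by this measure in Ldhb_KO, 4.29% in SO and 6.31% in Ldha_KO, and of those with a mean of at least 20, 8.95% in Ldhb_KO. With libraries brought to the WT sum, the medians were -0.17, -0.13 and -0.29 for the small subunit list and -0.17, -0.11 and -0.30 for the large. The medians over all 13142 genes were -0.04, -0.03 and -0.02.

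Imp4, a U3 particle protein, had the largest difference of these lists in Ldhb_KO, at 26.8 against 54.2 in WT, with SO at 34.8 and Ldha_KO at 39.3 (-0.99 in Ldhb_KO). Ppan, a large subunit factor, was at 106 in WT, and 72.1 (SO), 81.3 (Ldha_KO) and 61.3 (Ldhb_KO) in the others. Surf6, of the same subunit, was at 34.5, 24.4, 25.0 and 19.1. Utp11, a processome protein, went the other way in Ldhb_KO, at 83.8 against 72.8 in WT, 51.2 in SO and 48.0 in Ldha_KO.

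The 12 other snoRNP genes had medians of -0.32, -0.38 and -0.50, with none called. The medians were -0.17, -0.25 and -0.39 with libraries brought to the WT sum. Nhp2, an H/ACA core protein, was at 298 in WT and 195 in SO, with 197 in Ldha_KO and 172 in Ldhb_KO. Gar1, of the same particle, was at 57.3, 49.7, 47.1 and 33.8. Both had Ldhb_KO as the lowest library, as had the box C/D proteins Nop56 and Nop58. For Dkc1, of the H/ACA particles, and for Fbl, of the C/D particles, Ldha_KO was lowest instead.

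Of the other RNA polymerase I genes 8 of 11 were found (Polr1f, Polr1g and Polr1h were not matched by symbol), with medians of -0.10, -0.17 and -0.25 (0.04 in SO with libraries brought to the WT sum). Taf1d, a subunit of the promoter selectivity factor SL1, was called higher in Ldha_KO (1 of 8 genes, all genes 2.65%). It was at 198 there against 91.9 in WT, 63.4 in SO and 76.9 in Ldhb_KO. Its gene is also a host of snoRNAs. Taf1a, of the same factor, was at 9.17, 8.46, 8.002 and 5.57, so the subunits of SL1 were not moved in 1 direction in Ldha_KO.

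The 22 RNA polymerase III genes, whose enzyme makes 5S RNA and transfer RNA, had medians of -0.17, -0.12 and -0.28 (0.01 in Ldha_KO with libraries brought to the WT sum). Gtf3c6, of the factor TFIIIC, was called lower in Ldhb_KO (1 of 22 genes, all genes 1.09%). It was at 9.77 there against 24.5 in WT, 20.2 in SO and 19.4 in Ldha_KO. Polr3a, the largest subunit, was at 22.1, 19.8, 17.4 and 12.01.

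**Figure D4:**
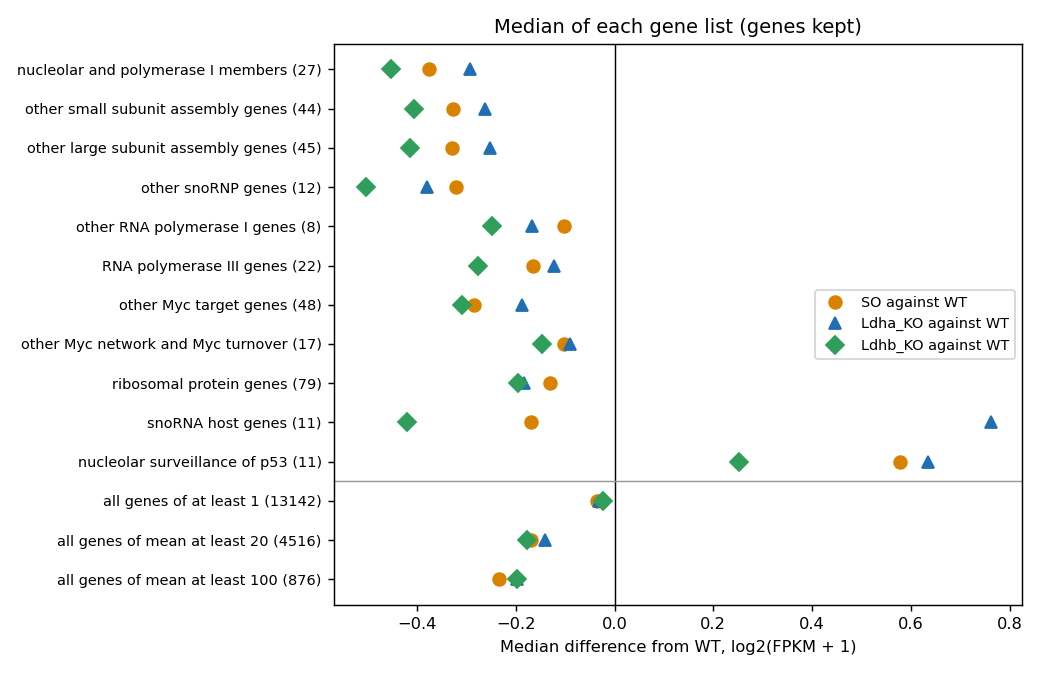
Median difference from WT (log2(FPKM + 1) scale) of each gene list, with the number of genes kept in brackets, above the medians of all genes by level. The small subunit, large subunit and snoRNP lists lie between -0.25 and -0.50, as the 27 members do, and the snoRNA host genes lie at 0.76 in Ldha_KO.

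The snoRNA host genes, whose introns release the guide RNAs of snoRNPs, set Ldha_KO apart from the proteins of the same particles. Of 11 genes, 10 were above WT in Ldha_KO, with a median of 0.76, while the medians in SO and Ldhb_KO were -0.17 and -0.42. Their summed level was 464 in WT, 401 in SO, and 606 and 321 in Ldha_KO and Ldhb_KO. Snhg6 and Snhg12 were called in Ldha_KO, against 2.65% of all genes kept, and 4 hosts with libraries brought to the WT sum. Snhg6 was at 12.4 in WT, and 10.8 (SO), 30.5 (Ldha_KO) and 11.02 (Ldhb_KO) in the others, and Snhg12 at 27.5, 28.2, 60.5 and 26.2. Against Ldhb_KO, 5 hosts were higher by 2-fold: Snhg1, Snhg3, Snhg4, Snhg6 and Snhg12 (1.67% of all genes). Rcc1, a protein-coding gene, was the exception, at 117 in WT and 70.5, 76.4 and 75.1 in the others.

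**Figure D5:**
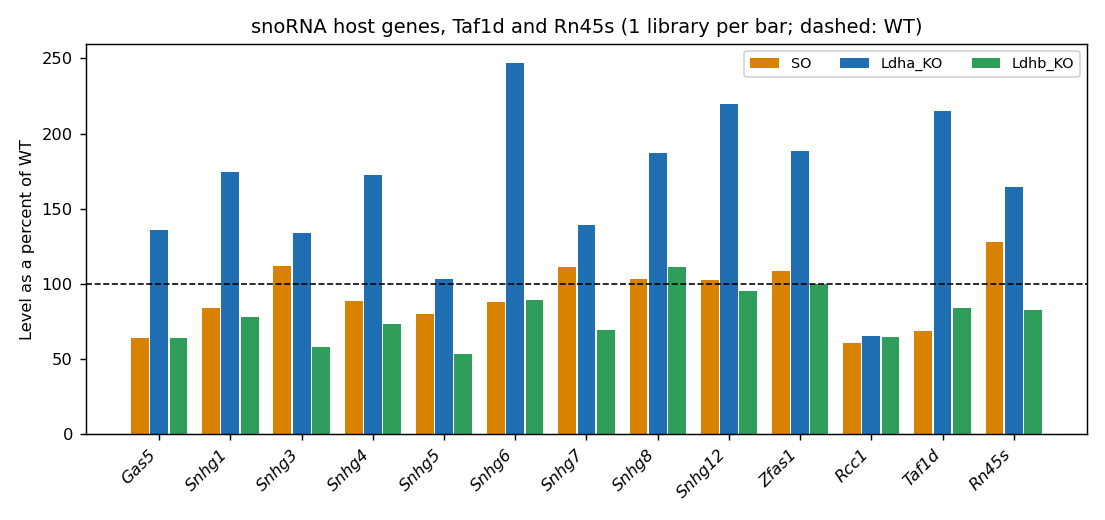
Level of 11 snoRNA host genes, Taf1d and Rn45s as a percent of WT in SO, Ldha_KO and Ldhb_KO, 1 bar per library and gene, with WT at the dashed line. Ldha_KO is the highest bar for each of them, reaching 247% of WT for Snhg6, and lies above WT for all but Rcc1.

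The 79 ribosomal protein genes, the structural parts of the ribosome, had medians of -0.13, -0.18 and -0.19. They made up 9.41% of the summed value in WT and 9.53% in SO, with 9.08% in Ldha_KO and 9.31% in Ldhb_KO. Rps13 was called lower in SO (1.27% of the list, all genes 0.472%). Rps27 was called higher in Ldha_KO, at 9.56 against 3.84 in WT (1.27% of the list, all genes 2.65%). Many of these genes have near-identical copies, so single values are uncertain. With libraries brought to the WT sum, the median in SO turned to 0.02, with -0.05 in Ldha_KO and -0.08 in Ldhb_KO.

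Among 48 other Myc target genes the medians were -0.29 in SO, -0.19 in Ldha_KO and -0.31 in Ldhb_KO, with 42, 42 and 39 below 0. Once libraries were brought to the WT sum they were -0.13, -0.05 and -0.19, with 32, 31 and 35 below 0. Against WT, Mat2a and Ccnd1 were called, both lower in Ldhb_KO (all genes 1.09%), and under either rescaling the call of Ccnd1 was lost. Mat2a, which makes S-adenosylmethionine, was at 267 in WT and 264 in SO, with 272 in Ldha_KO and 105 in Ldhb_KO. Ccnd1 (cyclin D1) was at 73.6, 38.6, 43.9 and 36.3, low in all 3 libraries. Prmt5, an arginine methyltransferase, was at 121, 88.9, 80.7 and 62.5. Hk2, a hexokinase, was at 48.7, 41.4, 30.3 and 70.3. Between the knockouts, Mat2a was called higher in Ldha_KO (1.37, all genes 1.67%) and Hk2 lower (-1.19, all genes 1.54%).

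The 17 other genes of the Myc network and of Myc turnover held none called, with medians of -0.10, -0.09 and -0.15. The medians in SO and Ldha_KO were both 0.05 with libraries brought to the WT sum. Skp2, a ubiquitin ligase subunit that acts on Myc, was at 41.1 in WT, 31.6 in SO, and 28.6 and 24.4 in Ldha_KO and Ldhb_KO. Usp28, a deubiquitinase that stabilises Myc, was at 39.5, 40.6, 31.0 and 52.2. Skp2 was thus lowest in Ldhb_KO, where Usp28 was highest. Mlxipl, a glucose-responsive relative that pairs with Mlx, was at 2.44 in WT and between 5.02 and 5.28 in the other libraries.

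Genes around p53, which free ribosomal proteins activate by binding Mdm2 when ribosome assembly is disturbed, were mostly above WT. Of 11 genes kept, 4 were called higher in SO (Mdm2, Cdkn1a, Ccng1 and Bbc3), 4 in Ldha_KO (Cdkn1a, Cdkn2a, Ccng1 and Bbc3) and 2 in Ldhb_KO (Cdkn2a and Bbc3). Over all genes kept the shares were 2.69%, 2.65% and 3.36%, and the count in Ldha_KO was 5 under either rescaling. The medians were 0.58, 0.64 and 0.25. Cdkn1a (p21) was at 46.6 in WT, and 125 (SO), 130 (Ldha_KO) and 84.4 (Ldhb_KO) in the others. Mdm2 was at 41.9, 103, 81.1 and 50.9. Cdkn2a, which encodes the nucleolar protein Arf and p16, was at 14.4, 20.1, 41.3 and 36.6. Trp53 itself was lower than WT, at 144, 130 and 104 against 180. That p53 targets were higher in SO and Ldha_KO was known from earlier results of these data and is no independent support.

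Markers of other cell types moved with these comparisons. The 10 trophectoderm markers summed to 57.6 in WT and 96.9 in SO, with 89.5 in Ldha_KO and 118 in Ldhb_KO. Most of these sums came from Krt8, Krt18, Krt19 and Tfap2c, though Krt8 in SO was at 97.9% of WT. Cdx2 was highest in WT (0.433) and lowest in Ldhb_KO (0.0749). Eomes, Hand1 and Gata3 were above WT in SO (191%, 247% and 204%) and in Ldha_KO (140%, 127% and 222%). In Ldhb_KO these genes were below WT. Gata3 was at most 0.782 in any library. The 10 primitive endoderm markers summed to 18.6, 38.0, 35.2 and 21.4. Most of this came from Col4a1, at 6.67, 23.8, 17.1 and 5.96, and Lama1, at 7.72, 7.53, 11.9 and 11.5. Sox17 was at 0 in WT and at most 0.361 elsewhere. Foxa2 went the other way, at 0.369 in WT and at most 0.117 elsewhere, and Sox7 in Ldhb_KO was at 33.9% of WT. The part of these markers in the differences of Myc, Mycn and the nucleolar genes was not tested.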

How the data were processed

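The deposited tables hold 1 value per gene symbol and library. They were read as FPKM made by the authors, because the deposited values are fractional and their smallest steps depend on the gene; RPKM would look the same. Per the submitters' processing notes, edgeR 3.26.8, HTSeq 0.11.2, SAMtools 1.9 and Bowtie2 2.3.4.3 were used with build mm9. Their roles, the annotation and the strand setting are not stated in those notes, labels or tables.

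Differences of log2(FPKM + 1), with a pseudocount of 1, were taken in 4 comparisons over the 13142 genes with at least 1 in at least 1 of 4 libraries, and called at 1 (2-fold). A second call used 1.5-fold. With 1 library per group no p-value or interval was computed. Python 3.11.15, pandas 2.3.3, numpy 2.4.6 and matplotlib 3.10.9 were used, and the calls were tested on simulated data. Alternatives were a pseudocount of 0.1, no filter, a filter of 5, both rescalings, the 1.5-fold call and leaving out Rn45s.

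Named genes were all members and, from each of 10 pathway lists, up to 4 genes with the largest difference in any comparison and at least 5 in some library, of which some are printed. Rps13, Ccng1, Trp53, Snhg1, Rcc1 and markers named singly were chosen after their values were seen. Members and lists were chosen with earlier results of these data known. Promoters came from RefSeq by symbol.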

Additional observations from a re-analysis of the deposited data

How the results depend on the processing

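With every library brought to the WT sum, the members' median difference was -0.21 in SO and -0.15 in Ldha_KO, 1 member (Myc) was lower in Ldha_KO, and 1 (Rn45s) was higher in Ldha_KO than in Ldhb_KO. By the median ratio to WT, the median in Ldha_KO was -0.19 and 1 member was lower there. These follow from the factors, which raise SO, Ldha_KO and Ldhb_KO by 0.16, 0.14 and 0.12 (summed value) or 0.11, 0.10 and 0.12 (median ratio) on the log2 scale. At 1.5-fold, 3 members were lower in SO, 3 higher and 4 lower in Ldha_KO, 7 lower in Ldhb_KO, and 2 higher in Ldha_KO than in Ldhb_KO. With a pseudocount of 0.1, no filter, a filter of 5, or without Rn45s, the counts and medians of the members stayed within 1.5 times their values. The median of members less that of all genes was -0.33, -0.26 and -0.40 in SO, Ldha_KO and Ldhb_KO, and -0.22, -0.16 and -0.26 with a filter of 20, chosen after seeing the data. No replicate could be left out, and depth in reads is unknown. No paired analysis was possible because each group has 1 library.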
